A study of Mus musculus with 2 samples.

Results

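The miR-181 family of the mouse consists of 6 microRNA (miRNA) genes, found here by their GENCODE M21 symbols among the 2202 miRNA genes counted. They lie in 3 clusters of 2 neighbouring hairpins, Mir181a-1 with Mir181b-1, Mir181a-2 with Mir181b-2, and Mir181c with Mir181d. The libraries hold small RNA of hippocampus taken at 2 months of age from female mice of the strain B6CASTF1/J, F1 hybrids of a C57BL/6J and a castaneus-derived parent, with no treatment or other genotype named. The 1 group holds 2 libraries, biological replicates 1 and 2, which have separate tissue records and the same donor record. The labels give the tissue as a layer of hippocampus and do not say which layer or whether separate animals were used, so differences between them may be technical, and the p-values given here carry counting error only. All 6 genes had counts in both libraries and passed the minimum of 10 counts in each that 420 of the 2202 genes met.

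A miRNA is cut from a hairpin precursor, and one arm of the hairpin, the 5p or the 3p strand, is loaded into an Argonaute protein and pairs with target mRNAs through its seed, bases 2 to 8. Members of a family share a seed and so are expected to recognise overlapping sets of targets. In the brain miR-181a is known as a regulator of AMPA receptor subunits in hippocampal neurons, and miR-181 miRNAs are also known from astrocytes under ischaemic stress and from developing T cells, where miR-181a tunes the sensitivity of the antigen receptor. In bulk tissue, fewer cells of a type and less RNA per cell cannot be told apart.

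The mature sequences are shown first because they set what a count per gene can mean. They were read from the RefSeq table for GRCm38.p6, which held both arms of all 6 members, and the seed is in capitals. The 5p arms are the arms known as the main products of these hairpins.
miR-181a-5p, from Mir181a-1 and Mir181a-2: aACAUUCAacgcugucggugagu
miR-181b-5p, from Mir181b-1 and Mir181b-2: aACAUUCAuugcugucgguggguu
miR-181c-5p, from Mir181c: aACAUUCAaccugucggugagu
miR-181d-5p, from Mir181d: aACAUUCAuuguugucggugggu

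All 4 forms carry the seed ACAUUCA, and in the RefSeq table the 6 members were the only genes with a mature sequence holding it at bases 2 to 8. Counted from the 5′ end, miR-181d-5p differs from miR-181b-5p by C12U over the 23 bases compared. miR-181c-5p, at 22 bases, equals miR-181a-5p with the base at position 11 removed. miR-181a-5p and miR-181b-5p differ at 3 of 23 positions, by A9U, C10U and A21G. The forms thus make 2 close pairs by sequence, a with c and b with d, that cut across the genomic clusters. Among all 2202 annotated hairpins, the 5p arm of the a form was found in 2 genes and that of the b form in 2 genes, while those of c and d were each found in 1.

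The 3p arms are shown because each of them was found in 1 hairpin only, so that they tell the copies apart.
miR-181a-1-3p: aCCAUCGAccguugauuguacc
miR-181a-2-3p: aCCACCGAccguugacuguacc
miR-181b-1-3p: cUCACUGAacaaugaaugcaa
miR-181b-2-3p: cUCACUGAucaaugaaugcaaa
miR-181c-3p: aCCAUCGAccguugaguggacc
miR-181d-3p: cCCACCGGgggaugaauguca

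The a copies differ by U5C and U16C in this arm, and the b copies by A9U over the 21 bases that both have. The arm of Mir181c differs from that of Mir181a-1 by U16G and U19G and keeps its seed, CCAUCGA.

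The hairpins of the 4 duplicated genes are shown as DNA in the sense direction, from the GENCODE M21 transcripts, with both mature arms in capitals, since the letters around the arms are the others that distinguish the copies.
Mir181a-1, mm10 chr1:137966455-137966541, plus strand: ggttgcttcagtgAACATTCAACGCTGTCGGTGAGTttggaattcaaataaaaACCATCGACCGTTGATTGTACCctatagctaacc
Mir181b-1, mm10 chr1:137966639-137966718, plus strand: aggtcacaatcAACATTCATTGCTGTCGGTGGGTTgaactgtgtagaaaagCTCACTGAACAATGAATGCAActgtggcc
Mir181a-2, mm10 chr2:38852735-38852810, plus strand: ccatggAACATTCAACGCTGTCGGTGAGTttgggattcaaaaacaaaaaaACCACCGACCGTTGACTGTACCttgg
Mir181b-2, mm10 chr2:38853830-38853918, plus strand: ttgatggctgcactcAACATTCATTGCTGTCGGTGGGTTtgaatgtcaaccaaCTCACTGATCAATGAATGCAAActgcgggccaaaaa

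Read from the start of the 5p arm, the b copies are identical up to the end of the mature sequence and differ at the next base, position 25. The a copies stay identical for 4 bases past the end of the mature sequence and differ at position 28. The longest stretch shared with another miRNA hairpin was 28 bases for each a gene and 26 for each b gene, but 17 for Mir181c and 13 for Mir181d. A read of the mature miR-181a-5p or miR-181b-5p sequence therefore has more than 1 place of origin. Reads mapping to more than 1 place made up 45.9% of the reads of replicate 1 and 48.4% of those of replicate 2. They were given to no gene in the authors' counting, and the arm a counted read came from is not recorded. The values of the 4 a and b genes are therefore uncertain, and they describe the reads that mapped to 1 place.

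The 6 genes lie in different surroundings. Mir181a-1 (ENSMUSG00000065565.1) and Mir181b-1 (ENSMUSG00000065458.1) are 97 bases apart within an intron of Gm4258, a non-coding gene. Mir181b-1 also overlaps an exon of the long non-coding RNA A430106G13Rik. This gene, on the same strand, starts at 137966531, inside the hairpin of Mir181a-1, which ends at 137966541. Mir181a-2 (ENSMUSG00000065423.1) and Mir181b-2 (ENSMUSG00000065578.1) are 1019 bases apart and run opposite to Nr6a1, an orphan nuclear receptor gene, within an intron of it. No gene annotated on their own strand contains them. Mir181c (ENSMUSG00000065483.2, mm10 chromosome 8, 84178873 to 84178961, minus strand) and Mir181d (ENSMUSG00000076338.1, 84178716 to 84178787, minus strand) are 85 bases apart in an intron of Nanos3 as annotated on their own strand. Nanos3 encodes a germ cell RNA-binding protein.

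The libraries held 4517648 sense counts on miRNA genes in replicate 1 and 5979247 in replicate 2, and levels are given as counts per 1000000 of these (CPM). Among miRNAs known to mark cell types, the neuronal list summed to 42471 and 47688 CPM in replicates 1 and 2, with Mir124a-1, one of several gene copies of miR-124, near 0 at 13 and 9 counts. The other lists summed to 14765 and 15477 CPM for astrocytes, 6526 and 6974 for oligodendrocytes, 19223 and 22325 for vessels, 1126 and 1217 for leukocytes and microglia, 1474 and 2001 for choroid plexus and ependyma, and 95.4 and 142.5 for red cells. All 7 sums were higher in replicate 2. The neuronal sum rose through Mir132 alone, at 16627 and 24242 CPM in replicates 1 and 2. The leukocyte and microglia sum rose through Mir150 alone, at 1009 and 1115 CPM. Every other gene of these lists had a lower CPM in replicate 2.

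The family held 0.535% ± 0.0105 (SD, n = 2) of all sense counts on miRNA genes. It had 24527 counts in replicate 1, or 0.543% (95% Wilson interval 0.536 to 0.550), and 31575 in replicate 2, or 0.528% (0.522 to 0.534). The family total therefore moved little between the libraries, at a log2 ratio of -0.04. Its makeup was uneven, and its members fell into 4 genes at 497 CPM or more and 2 genes at 21.7 CPM or less in each library.

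Mir181c, whose 5p sequence is its own, had 8574 counts in replicate 1 and 12323 in replicate 2, or 1898 and 2061 CPM, and ranked 69 of 2202 genes by mean CPM. Mir181d, its cluster partner, had 7512 and 9507 counts, or 1663 and 1590 CPM, and ranked 75. Both lay above every other member in both libraries, by the reads that mapped to 1 place.

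Mir181b-2 had 6049 and 5697 counts, or 1339 and 953 CPM, and ranked 87. Mir181a-1 had 2246 and 3840 counts, or 497 and 642 CPM, and ranked 125. These are the higher copy of the b form and the higher copy of the a form, and they stand in different clusters.

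Mir181a-2, the other source of miR-181a, had 65 and 130 counts, or 14.4 CPM (95% Wilson interval 11.3 to 18.3) and 21.7 CPM (18.3 to 25.8), and ranked 282. Mir181b-1, the other source of miR-181b, had 81 and 78 counts, or 17.9 CPM (14.4 to 22.3) and 13.0 CPM (10.5 to 16.3), and ranked 295. Both were far above the 0.664 and 0.502 CPM that a count of 0, read as up to 3 counts, allows in replicates 1 and 2. These intervals and floors express counting error alone, because reads copied by PCR do not each stand for a molecule. They also do not cover reads of the higher copy placed at the lower copy, which were not measured. No member had an antisense count, and the counts without regard to strand equalled the sense counts for all 6.

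**Figure D1:**
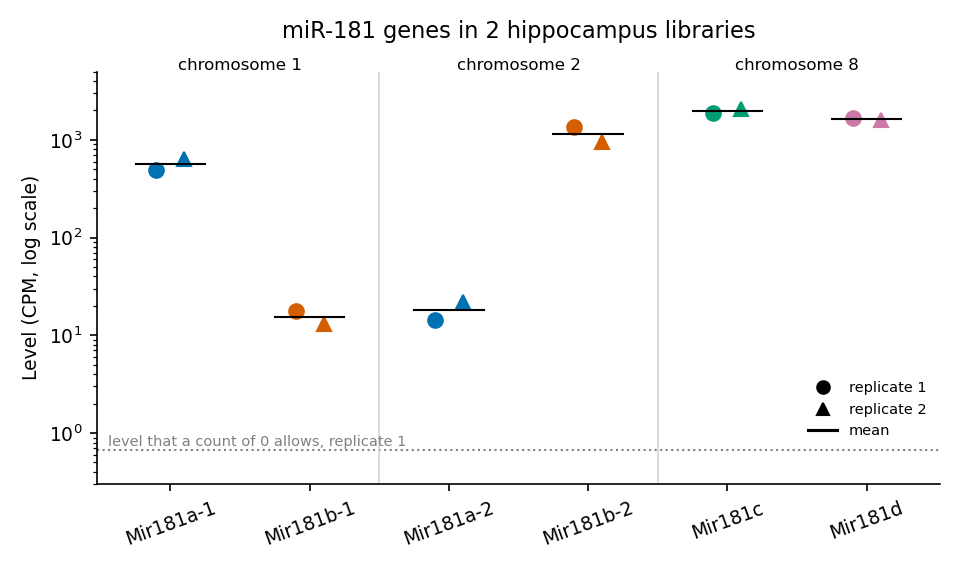
Level of each miR-181 gene in CPM on a log axis, grouped by cluster, with a circle for replicate 1, a triangle for replicate 2 a line at their mean and a dotted line at the 0.664 CPM that a count of 0 allows in replicate 1. Mir181b-1 and Mir181a-2 sit between 13.0 and 21.7 CPM in both libraries, and the other 4 genes between 497 and 2061 CPM.

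By mean CPM the order was Mir181c, Mir181d, Mir181b-2, Mir181a-1, Mir181a-2 and Mir181b-1. Neighbours in that order did not overlap between the libraries, except that Mir181a-2 and Mir181b-1 changed places. A read covers a mature arm rather than a stretch of a long transcript, but because the annotated hairpins run from 72 to 89 bases, levels between genes were also compared per 100 bases of hairpin. On that scale Mir181c stood at 2132 and 2316 and Mir181d at 2309 and 2208 CPM per 100 bases in replicates 1 and 2, so they overlapped. Mir181b-2 stood at 1504 and 1071, Mir181a-1 at 571 and 738, Mir181a-2 at 18.9 and 28.6, and Mir181b-1 at 22.4 and 16.3 CPM per 100 bases. Mir181c and Mir181d were thus not ordered once length was counted, and the last pair was not ordered on either scale. With 2 libraries no permutation p can go below 0.5, so the order is a description.

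The cluster on chromosome 8, with the only c and d genes, held 67.4% ± 2.51 of the family's counts (SD, n = 2), with 65.6% in replicate 1 and 69.1% in replicate 2. The cluster on chromosome 2 held 21.7% ± 4.58, with 24.9% and 18.5%, of which Mir181a-2 made up under 1 percentage point. The cluster on chromosome 1 held 10.9% ± 2.07, with 9.49% and 12.4%. The 3 clusters kept this order in both libraries. Reads of the shared a and b arms that mapped to more than 1 place are not in these shares.

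Grouped by form, c held 37.0% ± 2.88 of the family's counts and d 30.4% ± 0.366. The b form held 21.6% ± 4.74, with 25.0% in replicate 1 and 18.3% in replicate 2. The a form held 11.0% ± 2.23, with 9.42% and 12.6%. Reads of the shared a and b 5p arms that mapped to more than 1 place were left out. The 5p arms of c and d each lie in 1 hairpin. The shares of a and b may thus be too low beside c and d, by an amount that was not measured. Per hairpin length the share of d was 34.9% and that of c 34.4%, so the first and second places turned with that choice.

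**Figure D2:**
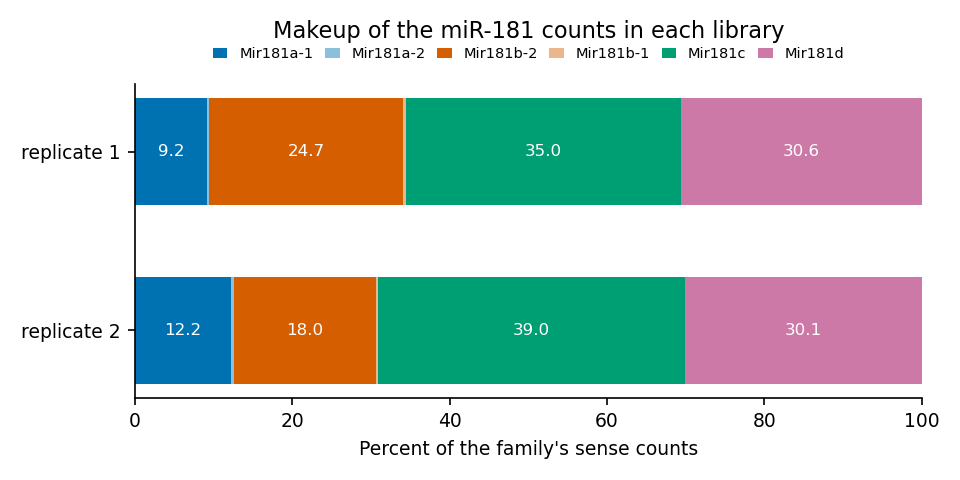
Percent of the family's sense counts held by each gene in each library, as bars that add up to 100. The b genes, in orange, take 25.0% of replicate 1 and 18.3% of replicate 2, and the a genes, in blue, take 9.42% and 12.6%.

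The 2 genes of a cluster were then compared, as neighbours that could share a primary transcript. Folds between genes are 2 to the power of a difference on the log2(CPM + 0.5) scale. On chromosome 8 Mir181c was 1.14-fold higher than Mir181d in replicate 1 and 1.30-fold higher in replicate 2, a mean log2 difference of 0.28 ± 0.13 (SD, n = 2) that became -0.02 per hairpin length. On chromosome 1 Mir181a-1 was 27.0-fold and 47.5-fold higher than Mir181b-1, a log2 difference of 5.16 ± 0.58, and 5.04 per hairpin length. On chromosome 2 the direction was the opposite: Mir181a-2 was lower than Mir181b-2, with a log2 difference of -5.96 ± 0.76, and -5.73 per hairpin length. Mir181b-2 was 90.0-fold higher than its partner in replicate 1 and 42.9-fold in replicate 2. In 1 of the duplicated clusters the a gene had nearly all counts, and in the other the b gene did. These are counts of reads that mapped to 1 place. To lie in 1 hairpin only, the 5p arm needs 5 more bases at its 3′ end for the a genes and 1 for the b genes. At the 5′ end it needs 2 and 3 more. The counts may thus not measure the a and b genes on the same scale.

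Uneven neighbours were common in these tables, by the reads counted. Some of the pairs compared here also hold a gene with a shared mature arm, whose reads that mapped to several places are left out. Many share a gene with another pair, so the pairs are not independent and the places among them are a description. Over the 74 pairs of adjacent hairpins on the same strand within 2000 bases with both genes tested, the median difference on the log2(CPM + 0.5) scale was 2.87, or 7.39-fold. Of these pairs, 6 differed more in level than Mir181a-2 and Mir181b-2, 13 more than Mir181a-1 and Mir181b-1, and 69 more than Mir181c and Mir181d.

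The copies of a form were compared next. Mir181a-1 was 33.4-fold higher than Mir181a-2 in replicate 1 and 28.9-fold in replicate 2, a log2 difference of 4.96 ± 0.15 (SD, n = 2), and 4.76 per hairpin length. Mir181b-2 was 72.7-fold and 70.4-fold higher than Mir181b-1, a log2 difference of 6.16 ± 0.03, and 6.01 per hairpin length. The spread of these copy ratios between the libraries was smaller than that of the ratios within the clusters on chromosomes 1 and 2. Reads of the shared 5p arm that fit both copies are in neither count, so these ratios need not be those of the copies' output.

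For comparison, genes with the same arrangement were collected, that is, pairs with 1 identical and 1 own mature arm. Mature sequences were found for 1018 of the 2202 genes. Of these, 926 had no shared arm and a median level of 0.541 CPM. Another 35 had every listed arm shared and a median of 0.0 CPM, and 25 of them had no count. The remaining 57 had 1 shared and 1 own arm, as the 4 a and b genes do. Their median was 21.3 CPM, and the cause of these differences was not tested. Of 23 such pairs, 17 had both genes tested, with a median difference between copies of 2.22 on the log2(CPM + 0.5) scale, or 4.65-fold. By the mean of the 2 libraries on this scale the b copies had the largest difference of the 17 and the a copies the second largest, followed by Mir92-1 over Mir92-2 at 24.5-fold. By the ratio of mean CPM, Mir26a-2 over Mir26a-1 at 37.6-fold stood above the a copies at 31.5-fold. The minimum of 10 counts leaves out pairs whose lower copy is very low, among them Mir194-2 over Mir194-1, whose difference of 5.94 was above that of the a copies and depends on the added 0.5 CPM. In replicate 2 alone the Mir26a copies, at a log2 difference of 5.77 against 1.25 in replicate 1, exceeded the a copies. The change of the copy ratio between the libraries was 0.21 on the log2 scale for the a copies, with 9 of the 17 pairs larger, and 0.05 for the b copies, with 16 larger, and the median was 0.22. How many reads of a shared arm were left uncounted was not measured for any pair.

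**Figure D3:**
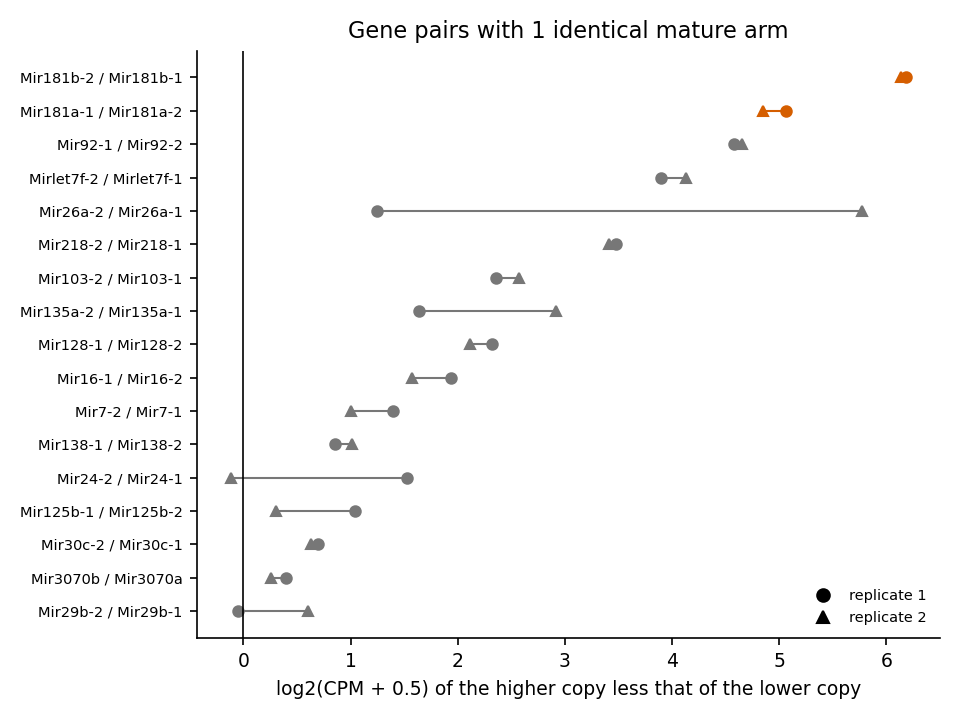
Difference between the 2 copies, as log2(CPM + 0.5) of the higher copy by mean CPM less that of the lower, for the 17 tested gene pairs with 1 identical mature arm, with a circle for replicate 1 and a triangle for replicate 2, ordered from top to bottom by the mean of the libraries. On this scale the miR-181 pairs, in orange, take the first and second places, with means of 6.16 and 4.96.

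The libraries were set against each other gene by gene, with the remaining counts on miRNA genes as the complement, by Fisher's exact test (two-sided), adjusted by Benjamini and Hochberg over all 420 genes at a threshold of 0.05. No condition is compared by this test, only the 2 libraries. Its p-values treat every read as an independent count and hold no spread between libraries, so they are too small wherever PCR or sampling of tissue adds any. Of the 6 members, 5 passed, where 56.9% of all genes tested did, and nothing is read from the count. Of them 3 were higher in replicate 2, where 27.1% of all genes were, and 2 were lower, where 29.8% were. With TMM or DESeq2 size factors in place of the totals, 3 were higher and 1 was lower. With these 236 and 238 of the 420 genes passed in either direction, and the shares by direction were not recorded. The members' log2 ratios of replicate 2 over replicate 1 ran from -0.49 to 0.58, beside a median of -0.07 and a median absolute ratio of 0.30 over all genes tested.

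Both a genes were higher in replicate 2. Mir181a-1 had a log2 ratio of 0.37 (95% exact interval 0.29 to 0.45, adjusted p = 9.4e-22, Fisher's exact test), and Mir181a-2 one of 0.58 (0.16 to 1.05, adjusted p = 0.0117). Mir181c, the form nearest in sequence, was higher by 0.12 (0.08 to 0.16, adjusted p = 1.2e-08, Fisher's exact test). That ratio is small, as 327 of the 420 genes tested had a larger absolute log2 ratio.

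Mir181b-2 was lower in replicate 2, at -0.49 (-0.54 to -0.44, adjusted p = 6.2e-75 by Fisher's exact test). Mir181b-1 did not pass, at -0.44 (-0.93 to 0.01, adjusted p = 0.0780). Mir181d passed as lower at -0.06 (-0.11 to -0.02, adjusted p = 0.00763), close to the median of all genes, and did not pass with TMM factors (-0.03, adjusted p = 0.323) or DESeq2 size factors (-0.02, adjusted p = 0.458). The summed levels of all 7 cell type lists were higher in replicate 2, while their genes were mixed. Of all genes tested, 27.1% were higher and 29.8% lower, and nothing is read from counts in lists this small. Past the test as higher were 2 of 3 genes each for red cells, for choroid plexus and ependyma, and for vessels, with none lower. The 1 astrocyte gene was higher, the oligodendrocyte genes were 1 higher and 1 lower, and of the 4 neuronal genes tested 1 was higher and 2 lower. Of the 4 leukocyte and microglia genes 1 was higher and none lower, with a median log2 ratio of -0.18. The part of these lists in the miR-181 differences was not tested.

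**Figure D4:**
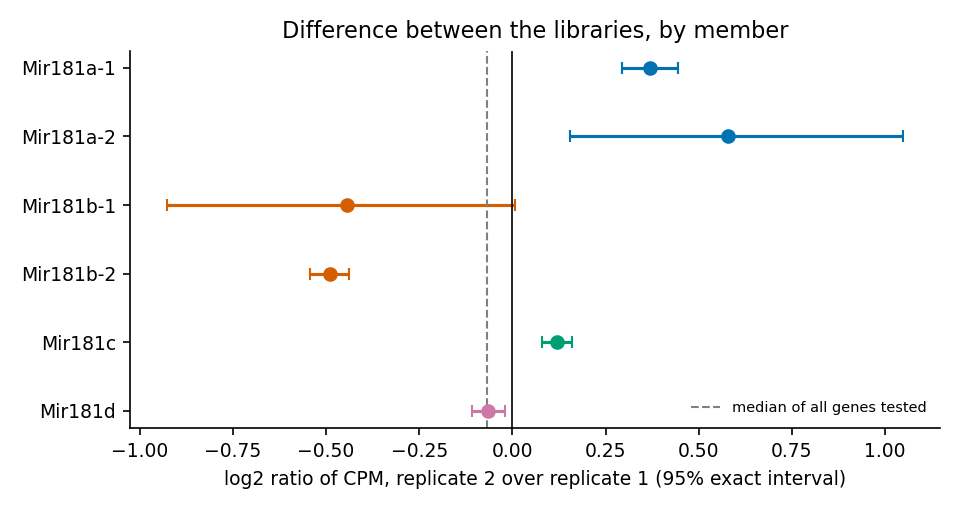
Log2 ratio of CPM, replicate 2 over replicate 1, for each member with its 95% exact interval, and a dashed line at the median of all 420 genes tested. The a genes lie at 0.37 and 0.58 and the b genes at -0.44 and -0.49, whichever cluster they belong to.

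Ratios between members do not depend on the library totals, so all 15 pairs of members were compared between the libraries by Fisher's exact test, with p-values adjusted over the 15 pairs. The ratio passed the threshold for 12 pairs and did not pass for 3. Singly, 56.9% of all genes tested differed between the libraries, and pairs of other genes were not tested. The 15 pairs are built from 6 genes and are not independent, so nothing is read from the count. Since the members' own differences were known when the pairs were grouped, the grouping is a description.

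The cluster partners differed in all 3 clusters. The ratio of Mir181a-1 to Mir181b-1 went from 27.7 in replicate 1 to 49.2 in replicate 2, a log2 change of 0.83 (95% interval 0.35 to 1.30, adjusted p = 0.00084 with Fisher's exact test). The ratio of Mir181a-2 to Mir181b-2 went from 0.0107 to 0.0228, a log2 change of 1.09 (0.64 to 1.54, adjusted p = 1.0e-06). The ratio of Mir181c to Mir181d went from 1.14 to 1.30, a log2 change of 0.18 (0.12 to 0.24, adjusted p = 3.4e-09). In each duplicated cluster the a gene gained on the b gene in replicate 2. Among the 74 adjacent pairs, which are not independent, the median difference between partners in their replicate log2 ratios was 0.50. Of these pairs 15 lay above the one on chromosome 2, 25 above the one on chromosome 1 and 58 above the one on chromosome 8.

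The copies of 1 form did not pass. The ratio of Mir181a-1 to Mir181a-2 was 34.6 in replicate 1 and 29.5 in replicate 2, a log2 change of -0.23 (95% interval -0.69 to 0.22, adjusted p = 0.351 with Fisher's exact test). The ratio of Mir181b-1 to Mir181b-2 was 0.0134 and 0.0137, a log2 change of 0.03 (-0.44 to 0.50, adjusted p = 0.936). With 65 to 130 counts in the lower copy, changes of the copy ratio within these intervals could not be seen at this depth. The third pair that did not pass was Mir181b-1 with Mir181d (-0.39, interval -0.86 to 0.07, adjusted p = 0.106 by the same Fisher's exact test). Between the higher copies, Mir181a-1 against Mir181b-2, the ratio went from 0.371 to 0.674, a 1.82-fold change (log2 0.86, interval 0.77 to 0.95, adjusted p = 4.9e-76 by Fisher's exact test).

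**Figure D5:**
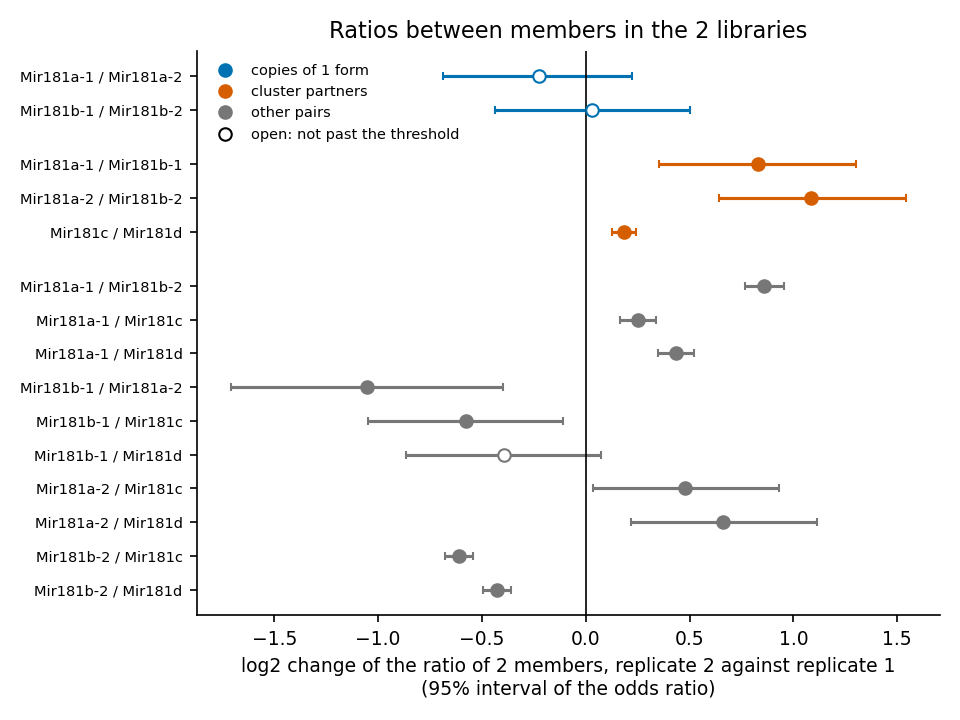
Log2 change, replicate 2 against replicate 1, of the ratio of the first named member to the second for all 15 pairs, with 95% intervals. Copies of 1 form, in blue, have intervals that include 0, and the cluster partners, in orange, lie at 0.83, 1.09 and 0.18 with intervals above 0.

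The genes outside the family nearest to the top member of each cluster were found as the smallest distance on log2(CPM + 0.5) over the 2 libraries. For Mir181c they were Mir708, Mir320 and Mir138-2, at distances of 0.07 to 0.27. For Mir181b-2 they were Mir760, Mir423 and Mir381, at 0.04 to 0.14, and for Mir181a-1 Mir3099, Mir672 and Mir1843a, at 0.05 to 0.23. Mir760 had 1373 and 941 CPM and Mir3099 had 513 and 654 CPM, close to the values of the members they match. With 2 libraries such likeness covers a level and a single ratio.

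Beside the family stand 16 other miRNA genes linked to synapses and neuronal activity. They summed to 52509 CPM in replicate 1 and 56386 in replicate 2, led by Mir132, an activity-induced miRNA, at 16627 and 24242 CPM and by Mir128-1 at 13444 and 11179 CPM. Of the 13 tested, 1 was higher and 8 lower in replicate 2 and 4 did not pass, beside 27.1% higher and 29.8% lower of all genes, with a median log2 ratio of -0.07, equal to that of all genes. The split was 3 higher and 5 lower with TMM or DESeq2 size factors. With these 236 and 238 of the 420 genes passed in either direction. Their shares by direction were not recorded, so this split has no background beside it. All 5 neuronal markers above are in this list.

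Because miR-181 is abundant in lymphoid cells, 5 miRNAs of blood leukocytes were set beside it. They summed to 1762 and 2063 CPM, 4 of them are also in the leukocyte and microglia list, and 2 of 5 were higher in replicate 2 and none lower, beside 27.1% and 29.8% of all genes. Their median log2 ratio was -0.15, opposite in sign to the sum and the calls. Mir150 stood at 1009 and 1115 CPM and Mir146 at 635 and 846 CPM. The leukocyte miRNAs Mir142, Mir155 and Mir223, which did not pass, lay between 15.1 and 71.1 CPM. Their part in the miR-181 levels was not tested.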

How the data were processed

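Small RNA of 2 libraries of 1 group was analysed from 1 deposited table per library. The authors counted reads as whole-number counts per miRNA gene, on the mouse build mm10 with GENCODE M21, per the deposited notes. The aligner was not given in the sources used here. There are 3 count columns with no names in a table. The larger strand column was taken as sense and used. Neither totals nor tests include the 4 leading lines, which hold reads with no gene. Arms are not separated.

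CPM, shares, Wilson intervals, Fisher's exact tests and exact binomial intervals (scipy 1.17.1) were computed from the counts. Ratios between replicates used a pseudocount of 0.5 CPM. Genes with 10 or more counts in both libraries were tested. The calculation was tested on simulated Poisson counts, which hold counting error and no spread between libraries, so its outcome does not cover such spread. With 1 group, edgeR's quasi-likelihood test has no contrast. TMM factors (edgeR 4.0.16) and DESeq2 1.42.0 size factors, both with an exact binomial test, were alternatives, beside other minimums, pseudocounts, columns, denominators, a thinned library, hairpin length and leaving out a replicate. Named genes are the 6 members, the 3 nearest to the top member of each cluster and the top genes of each list. Mir124a-1, Mir142, Mir155, Mir223 and the Mir92, Mir26a and Mir194 genes were named after their values were seen. The members and lists were chosen with earlier results of these data known.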

Additional observations from a re-analysis of the deposited data

How the results depend on the processing

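Of 136 values recomputed under an alternative, 120 stayed within the replicate spread or on the same side of the threshold. Part of these could not come out otherwise. With 2 libraries, leaving out 1 gives a value that always lies within their SD of the mean. Shares within the family are the same without regard to strand, because the members' counts are equal. A pseudocount does not enter the test of a gene. The count of 120 is therefore not a measure of robustness. The family share of 0.535% became 0.580% with counts without regard to strand, 0.611% without the most abundant gene and 0.202% of all reads, and was 0.528% to 0.543% with a replicate left out. Per hairpin length the d form rose to 34.9% of the family, the difference of Mir181c over Mir181d turned to -0.023, and the copy differences were 4.76 for a and 6.01 for b. With 5 CPM added the copy differences were 4.65 and 5.80, and with 1 CPM added 6.12 for b. The added amount lowers them by construction, because the lower copies are near it. In the plasticity-linked list, TMM and DESeq2 size factors each gave 3 higher and 5 lower genes, against 1 and 8. The shares of all genes by direction were not recorded for these factors. Mir181d, at a log2 ratio of -0.06 with the totals, lost its call with both (log2 -0.03 and -0.02). Its counts are the same, and the factors change the totals they are set against. The other members kept their direction under every alternative. Of the members 5 passed in the main setting, where 239 of 420 genes did. At minimums of 5 and 1 and with no filter 5 passed, where 239 of 474, 244 of 627 and 249 of 774 genes did. With the thinned library and without regard to strand 5 passed, where 229 of 406 and 218 of 393 genes did. With TMM and DESeq2 size factors 4 passed, where 236 and 238 of 420 genes did. At a minimum of 100 counts the 2 lowest genes were not tested, and all 4 others passed, where 200 of 270 genes did. Nothing is read from these counts. Alternatives for the copy differences and the list were chosen after seeing the data. Leaving out a replicate gave cluster shares of 9.49% to 12.4%, 18.5% to 24.9% and 65.6% to 69.1%. Depth limits the copy comparisons, which rest on 65 to 130 counts in the lower copies. They are also limited at any depth, because reads of the shared arms that mapped to more than 1 place are left out.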
